A study of Mus musculus with 32 samples.

Results

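Messenger RNAs that encode the translation initiation and elongation factors were measured in the soma and the neurites of cultured mouse hippocampal neurons. They were selected by name: protein-coding genes whose symbol starts with Eif1 to Eif6, Eef1, Eef2 or Pabpc, which gave 82 of the 55573 genes in the count table. No measured value entered this choice, which also takes in regulators that bear such names, among them the eIF2 kinases, the 4E-binding proteins and the methyltransferases of elongation factors.

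Hippocampi of newborn pups of both sexes were pooled within a litter, and the neurons were grown for 15 days on porous membranes. Neurites cross the pores, so that the upper side (soma, with the neurites that stayed there) and the lower side (neurites) could be collected apart. WT neurons came from C57BL/6 mice and Mettl3 KO neurons from Mettl3Flox/Flox mice. Both genotypes were transduced at DIV7 with an AAV (50000 vector genomes per cell) carrying Cre-P2A-dTomato under the neuronal hSyn promoter, so WT cultures also express Cre, and the promoter does not target non-neuronal cells. All cultures were silenced from DIV14 with 1 µM TTX and 50 µM D-AP5 for 16 h. Then 55 mM KCl was given for 2 h to the KCl cultures and nothing to the Ctrl cultures. RNA-seq covered 2 libraries in each of 8 groups, made from different litters, with Ctrl and KCl of a replicate from 1 litter. DART-seq, in which a fusion of APOBEC1 and a YTH domain edits cytosines beside m6A, supplied editing scores per RNA and a list of sites.

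Translation initiation begins when eIF2, loaded with GTP and initiator tRNA, joins the small ribosomal subunit together with eIF1, eIF1A, eIF3 and eIF5, while the eIF4F complex and poly(A)-binding protein bring in the mRNA by its cap and tail. eEF1A then delivers aminoacyl-tRNA to the ribosome and eEF2 drives translocation. In neurons, phosphorylation of eIF2, of the 4E-binding proteins and of eEF2 adjusts protein synthesis to activity, and many mRNAs of the translation machinery begin with a pyrimidine-rich (TOP) sequence that places them under control of mTOR.

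The libraries held 33789183 to 71394235 counts, of which the 82 genes took 0.997% to 1.12% in WT and 1.22% to 1.42% in Mettl3 KO. Mettl3 stood at 9.04 to 16.7 CPM (counts scaled to library size by TMM) in WT and at 3.91 to 10.97 in Mettl3 KO. These ranges overlapped only across compartments and treatments. Within each compartment and treatment, both Mettl3 KO libraries lay below both WT libraries. In Ctrl soma they had 8.93 and 10.97 CPM against 16.7 and 16.1 in WT. In KCl neurites, the closest groups, they had 8.23 and 3.99 against 11.1 and 9.04. The paper reports loss of the floxed exon and near complete removal of METTL3 protein. The neuronal list (8 of 8 genes found, none at 0) summed to 3278 to 4785 CPM in WT. The list of astrocyte markers (6 of 6 genes found, none at 0) summed to 851 and 868 CPM in WT Ctrl soma and to 2704 and 1723 in WT Ctrl neurites. With KCl it summed to 1164 and 1074 CPM in WT soma and 1935 and 2299 in WT neurites, and its part in the neurite results below was not tested. In the Mettl3 KO Ctrl cultures the same list reached 2011 and 1569 CPM in soma and 6082 and 2533 in neurites. Both KCl libraries of Mettl3 KO replicate 1 stood apart, with 3627 and 7253 CPM of oligodendrocyte lineage markers (7 of 7 genes found, none at 0) against at most 191 in any other library. Their astrocyte list summed to 8891 CPM in soma and 17792 in neurites. In the tests they enter only the estimate of the spread. In such bulk samples, fewer cells of a type and less RNA per cell cannot be told apart.

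Per length, Eef1a1, which brings aminoacyl-tRNA to the ribosome, had the highest level in WT Ctrl soma, 412 ± 15.3 FPKM (CPM per kilobase of exon, mean ± SD, n = 2). Next came Eif5a, which resolves stalled peptide bond formation, at 256 ± 1.93 FPKM, and Eif1, which monitors start codon choice, at 177 ± 0.237 FPKM. Eef2 stood at 158 ± 5.73 and the helicase Eif4a1 at 118 ± 3.76 FPKM. Each of these 5 levels differed from its neighbour in the order by more than the spread between the libraries. The median over the 82 genes was 12.5 FPKM, and 15 lay below 1 FPKM.

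In WT Ctrl cultures 8 of the 78 factor mRNAs tested were higher in neurites than in soma and 1 was lower, at 1.5-fold and an adjusted p of 0.05 (edgeR quasi-likelihood test, Benjamini-Hochberg adjustment over all genes). Over all 23200 genes tested, 13.6% were called, 9.01% higher and 4.54% lower in neurites, so the members' share, 11.5%, lay near the background. The median log2 difference was −0.16 over the factors and −0.10 over all genes. The mRNAs called higher were Pabpc1, Pabpc4, Eef2, Eef1a1, Eif3f, Eif2ak2, Eif4ebp1 and Eif4ebp2. At any fold, 13 were higher and 7 lower, against 10.9% and 8.59% of all genes. Scaling by library totals in place of TMM shifted the median of all genes from −0.10 to −0.33 and the calls to 5 higher and 12 lower, so the split between the directions rests on the scaling. A fit with the more variable Mettl3 KO libraries included called 0 members and 0 genes in all, and without WT Ctrl neurite replicate 1 the count was 14.

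**Figure D1:**
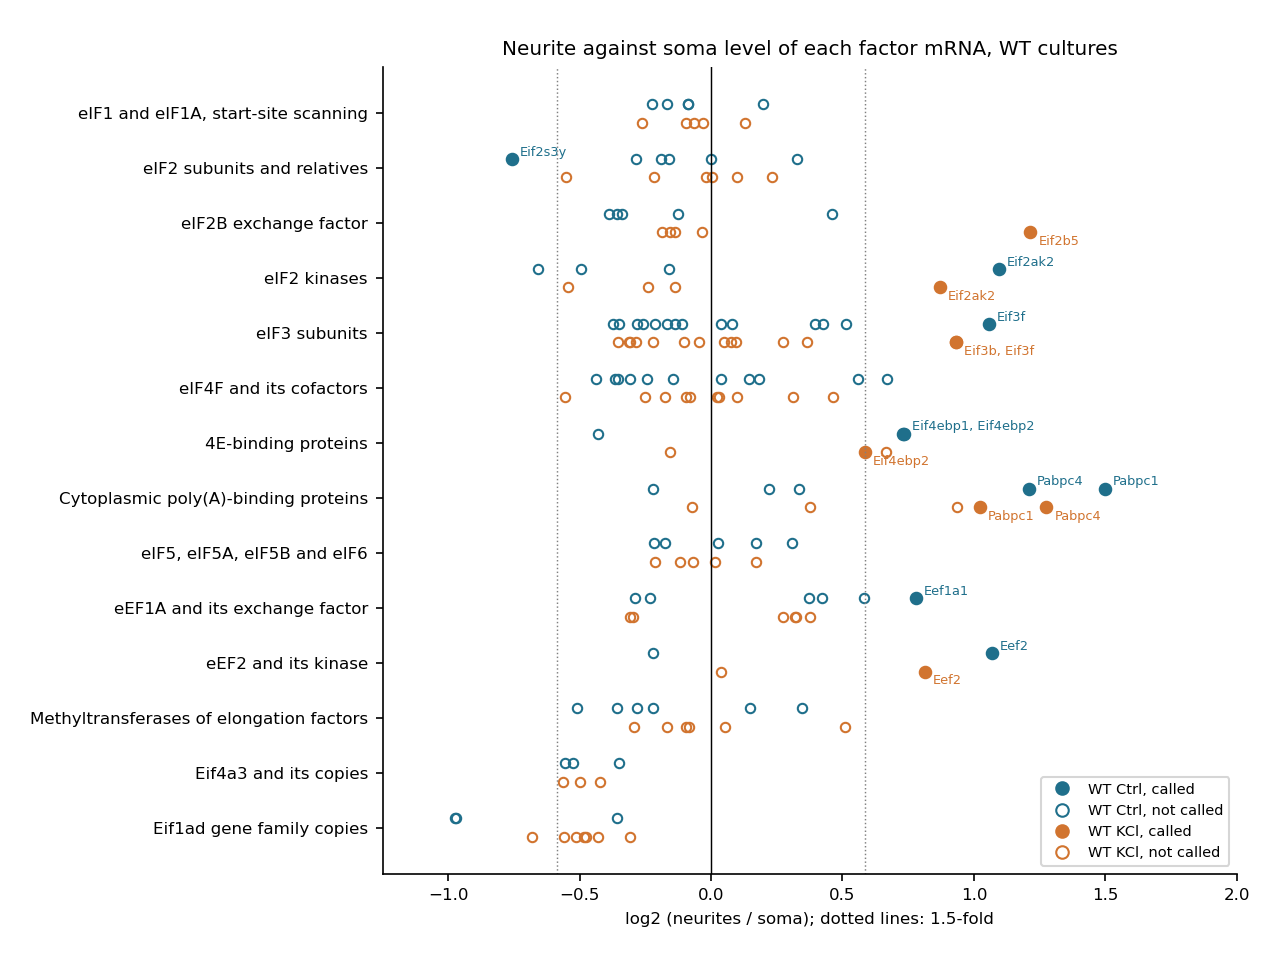
Log2 ratio of neurites over soma (x axis) for each factor mRNA, in rows by role, in WT Ctrl (blue) and WT KCl (orange) cultures; filled dots passed 1.5-fold and the adjusted p. Pabpc1, Pabpc4, Eef2, Eif3f and Eif2ak2 lie on the right in both treatments, while most initiation factors lie within 1.5-fold of 0.

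The starts of these genes are shown because TOP mRNAs begin with a pyrimidine run. A run that starts elsewhere in the window does not by itself mark a TOP mRNA. Each line is a 30-base window, from 5 bases before to 25 bases after the RefSeq start in GRCm38.p6, read 5′ to 3′ along the gene, with capitals marking the longest run of a C followed by at least 6 pyrimidines.
Eif3f (chr7:108934410-108934439, + strand): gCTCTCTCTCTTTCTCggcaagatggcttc
Eef1a1 (chr9:78481700-78481729, − strand): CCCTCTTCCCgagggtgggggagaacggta
Eef2 (chr10:81176626-81176655, + strand): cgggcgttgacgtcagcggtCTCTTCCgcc
Eif2b5 (chr16:20498812-20498841, + strand): tCTCTCCCTgcaactacaccttcgcgtttt
Eif2s3y (chrY:1010590-1010619, + strand): cagccaCTTCCTTCTTTCgtgagcaagatg
Pabpc4 (chr4:123282906-123282935, + strand): gaaaagaaaagaagaggaaaaaaaaaagca
Eif4ebp2 (chr10:61452645-61452674, − strand): cgggacgaccgggcgagagcaggcgagttg
Eif2ak2 (chr17:78882548-78882577, − strand): tgtgggaaggcggagtccgccgggaaaacg

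Eif3f, Eef1a1, Eef2, Eif2b5 and Eif2s3y have such a run, and Pabpc4, Eif4ebp2 and Eif2ak2 have none in this window. By the stricter start rule below, Eif3f passed exactly at the annotated start. Eef1a1, Eif2b5 and Eif2s3y passed only within 2 bases of it, and Eef2 passed neither. Promoters of 57 of the 82 genes were matched in RefSeq, and 15 of them (26.3%) held a run on the sense strand, the strand searched, against 14.1% of 27025 genes. A C followed by at least 4 pyrimidines exactly at the annotated start was found in 2 (3.51%) against 3.01% of genes, and within 2 bases of it in 11 (19.3%) against 10.6%. Of the 15 genes with a run, 3 were higher in WT Ctrl neurites (Eef1a1, Eef2, Eif3f) and 1 was lower (Eif2s3y), with a median log2 difference of 0.18. Of the 42 matched genes without one, 3 were higher and 0 lower, with a median of −0.16. Over all genes tested, with or without a run, 9.01% were higher and 4.54% lower. A link between runs and neurite levels was not tested. Pabpc1 and Eif4ebp1 were not matched.

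Pabpc1 coats the poly(A) tail and links it to eIF4G. It stood at 458 and 469.8 CPM in the WT Ctrl soma libraries and at 1208 and 1593 in the neurite libraries. Both neurite libraries lay far above both soma libraries, with a log2 difference of 1.5 ± 0.14 (SE, adjusted p 0.00021), the largest among the called factors. Its relative Pabpc4, a less abundant tail-binding protein, had 36.0 and 33.9 CPM in soma and 74.6 and 98.0 in neurites, a log2 difference of 1.21 ± 0.14 (adjusted p 0.00054). The groups did not overlap for either gene, as was so for 32.9% of all genes in this direction. Per length, Pabpc1 exceeded Pabpc4 by 7.84 and 8.54 times in soma and by 9.97 and 10.01 times in neurites.

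Eef2, the translocase of the elongating ribosome, had 539 and 512 CPM in WT Ctrl soma and 1041 and 1313 in neurites. Both neurite libraries lay well above both soma libraries, with a log2 difference of 1.07 ± 0.12 (adjusted p 0.0005). Eef2k, the kinase that inactivates eEF2, had 20.9 and 21.7 CPM in soma and 19.0 and 20.0 in neurites, a log2 difference of −0.22 ± 0.15 that missed the threshold (adjusted p 0.31). The FPKM ratio of Eef2 to Eef2k was 57.5 and 52.6 in soma and 122 and 146 in neurites. The ratio was higher in both neurite libraries than in either soma library.

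Eef1a1 had 1054 and 1000.2 CPM in WT Ctrl soma and 1693 and 2069 in neurites, a log2 difference of 0.78 ± 0.15 (adjusted p 0.0062). Without WT Ctrl soma replicate 2 the adjusted p was 0.055. Its reads are shared with many near-identical copies in the genome, and the counting kept multi-mapping reads. Eef1a2, the form that replaces it in mature neurons, had only 21.4 and 15.9 CPM in soma and 24.0 and 29.4 in neurites, and its difference of 0.42 ± 0.20 did not pass (adjusted p 0.17). Eef1g, the structural subunit of the exchange factor that recharges eEF1A, had 219 and 205 CPM in soma and 324 and 355 in neurites. Its log2 difference of 0.58 passed the test (adjusted p 0.0076) but lay just under 1.5-fold, and it was called with RLE scaling and with DESeq2.

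Among the 14 mRNAs of eIF3 subunits, which form the scaffold of the initiation complex, 1 was called. Eif3j1 and Eif3j2 are 2 gene copies for 1 subunit and may share reads, since multi-mapping reads were kept. Eif3f, a subunit with an MPN domain, had 106 and 102 CPM in WT Ctrl soma and 210.4 and 252 in neurites, a log2 difference of 1.06 ± 0.12 (adjusted p 0.0004). The other 13 mRNAs, from −0.37 to 0.51, stayed within 1.5-fold, and the median of the 14 was −0.12. Eif3h, which also has an MPN domain, was the nearest, with 104 and 107 CPM in soma and 152 and 169 in neurites (log2 difference 0.51, adjusted p 0.018). Eif3f was the mRNA past 1.5-fold, although the proteins of all 14 belong to or associate with 1 complex.

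Of the 3 mRNAs of 4E-binding proteins, which keep eIF4E from the eIF4F complex, 2 were called higher in neurites. Eif4ebp2, the 4E-binding protein that prevails in brain, had 33.1 and 31.7 CPM in WT Ctrl soma and 51.1 and 64.0 in neurites, a log2 difference of 0.73 ± 0.13 (adjusted p 0.0052). Without WT Ctrl neurite replicate 2 the difference was 0.57, under 1.5-fold. Eif4ebp1 had 2.89 and 2.79 CPM in soma and 5.18 and 4.87 in neurites, a log2 difference of 0.73 ± 0.20 (adjusted p 0.029). This was the weakest call: the adjusted p lay between 0.063 and 0.16 with any 1 of the 4 libraries left out, and it was 0.055 with the insert as a replicate block. Eif4e, the cap-binding subunit, had 126 and 134 CPM in soma and 104 and 111 in neurites (adjusted p 0.062). None of the 11 mRNAs of eIF4F and its cofactors was called, and Eif4h, a cofactor of the helicase, came closest among those with an adjusted p under 0.05, at a log2 difference of 0.56 (adjusted p 0.0081).

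Of the 4 eIF2 kinases, which halt initiation by phosphorylating eIF2, 1 was called. Eif2ak2 (PKR, activated by double-stranded RNA) had 2.63 and 2.16 CPM in WT Ctrl soma and 5.07 and 5.89 in neurites, a log2 difference of 1.09 ± 0.22 (adjusted p 0.0078). Without WT Ctrl soma replicate 2 its adjusted p was 0.081. Eif2ak3 (PERK, activated by unfolded protein in the endoplasmic reticulum) had 14.3 and 12.8 CPM in soma and 10.7 and 7.54 in neurites, which missed the threshold (adjusted p 0.054). Eif2ak4 (GCN2, activated by uncharged tRNA) had 13.5 and 12.8 CPM in soma and 10.8 and 9.10 in neurites, which also missed it (adjusted p 0.053). For both, the neurite libraries lay below the soma libraries, opposite to Eif2ak2. Such an order was found for 32% of all genes. Eif2ak1 (HRI, the heme-regulated kinase) had 53.3 and 56.7 CPM in soma and 56.1 and 49.0 in neurites, and the groups overlapped. In the soma and neurite libraries of Mettl3 KO KCl replicate 1, with the highest glial marker sums, Eif2ak2 had 21.4 and 35.9 CPM. Eif4ebp1 had 28.9 and 38.5 CPM there, and both mRNAs were lower in every other library. The other mRNAs called higher in WT Ctrl neurites did not stand out there in this way. The part of glial cells in these calls was not tested.

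The factor called lower in neurites was Eif2s3y, the Y-linked copy of the gamma subunit of eIF2, with 12.2 and 12.6 CPM in WT Ctrl soma and 7.47 and 8.23 in neurites. The log2 difference was −0.76 ± 0.14 (adjusted p 0.0058), and the adjusted p was 0.061 and 0.095 without WT Ctrl soma replicates 1 and 2. Its X-linked counterpart Eif2s3x had 98.7 and 106 CPM in soma and 131 and 143 in neurites. Per length, Eif2s3x exceeded Eif2s3y by 8.82 and 9.13 times in soma and by 19.1 and 19.0 times in neurites. The pups of both sexes were pooled, so the level of the Y-linked copy in a library also depends on the share of males, which is common to soma and neurites of an insert. Eif4a3, the helicase of the exon junction complex, was lower in neurites under the 1.5-fold threshold, with 63.7 and 66.8 CPM in soma and 49.1 and 47.6 in neurites (log2 difference −0.53, adjusted p 0.0093).

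**Figure D2:**
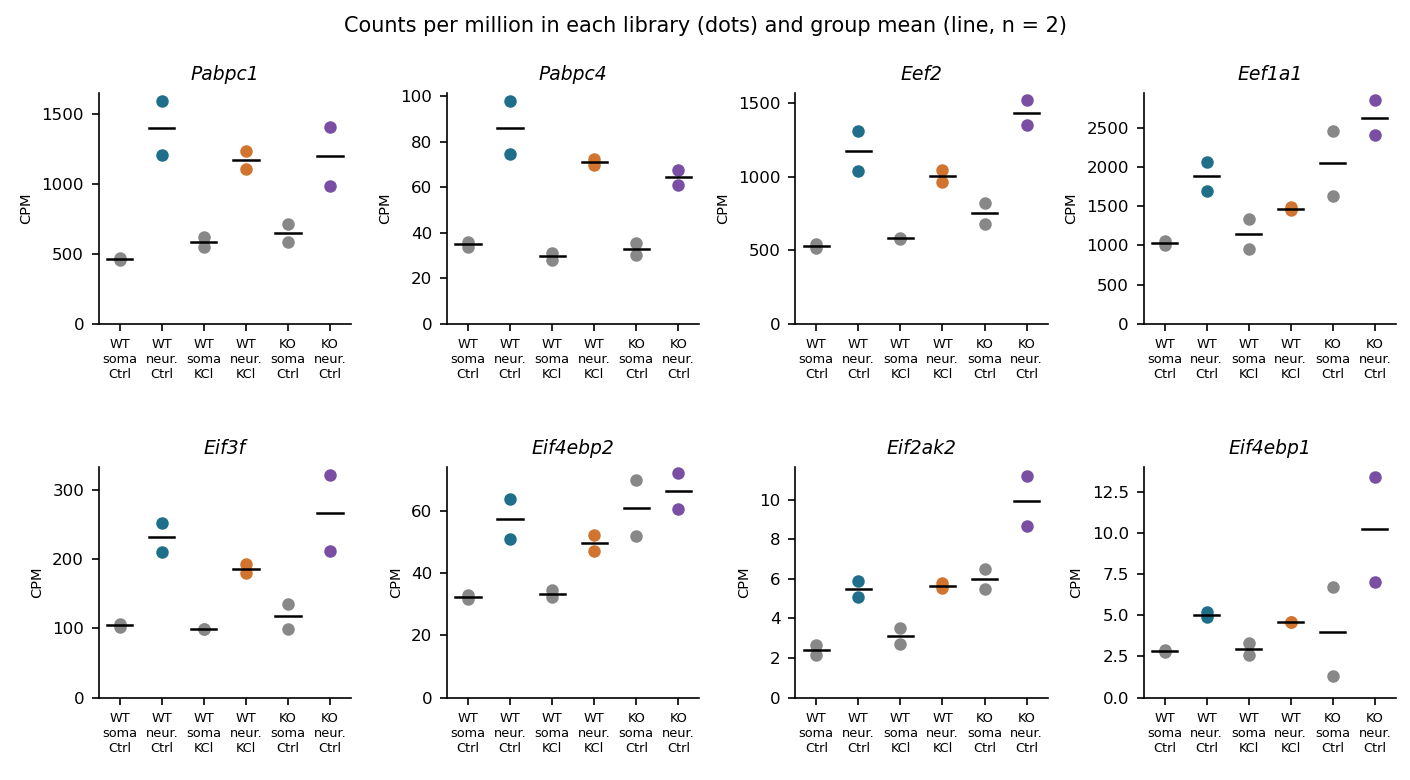
CPM (y axis, from 0) of the 8 mRNAs called higher in WT Ctrl neurites, with 1 dot per library and a line at the mean of the 2 libraries of each group. In WT Ctrl cultures both neurite libraries lie above both soma libraries for all 8, which were chosen by a test of this difference. Over all genes tested, 32.9% had this order.

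In KCl-treated WT cultures 8 of 81 factor mRNAs were higher in neurites and 0 lower, against 9.6% of 23028 genes, 6.87% higher and 2.73% lower, and with library totals the calls were 7 higher and 5 lower. Pabpc1, Pabpc4, Eef2, Eif3f, Eif2ak2 and Eif4ebp2 were called in both treatments, that is 6 of the 8 called in Ctrl (75%) and of the 8 called with KCl (75%). Over all genes the shared calls were 57.8% of those in Ctrl and 76.3% of those with KCl. The libraries of the treatments are separate, but they come from the same litters and share the estimate of the spread. Pabpc1 had 548 and 619 CPM in soma and 1236 and 1109 in neurites after KCl (log2 difference 1.02, adjusted p 0.0016). Pabpc4 had 28.0 and 31.3 CPM in soma and 72.5 and 69.6 in neurites, with a difference of 1.28. Eef1a1 fell out of the calls, with 1334 and 956 CPM in soma and 1448 and 1487 in neurites, with soma replicate 1 close to the neurite level. Eif4ebp2 passed at a log2 difference of 0.59, right at the fold threshold, and lost the call under 9 of 12 alternatives. Without WT KCl neurite replicate 2, 5 factors were called.

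The mRNAs called with KCl and not in Ctrl were Eif2b5, the catalytic subunit of the exchange factor that recharges eIF2, and Eif3b, the RNA-binding scaffold subunit of eIF3. After KCl, Eif2b5 had 27.5 and 40.2 CPM in soma and 76.1 and 79.9 in neurites, a log2 difference of 1.22 ± 0.18 (adjusted p 0.0024). Eif3b had 43.3 and 44.2 CPM in soma and 72.2 and 93.01 in neurites, a difference of 0.93 ± 0.17 (adjusted p 0.0071), whose adjusted p was 0.063 without WT KCl neurite replicate 2. In Ctrl, soma held 70.6 and 57.2 CPM of Eif2b5 and 89.8 and 62.2 of Eif3b. Both mRNAs were lower in soma after KCl, and the soma values of the treatments did not overlap.

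KCl moved few factor mRNAs. At the 2-fold threshold 0 of 81 were called in WT soma and 0 of 75 in WT neurites by edgeR and by DESeq2, against 6.7% and 5.03% of all genes. At an unadjusted p under 0.05 there were 15 and 11 members, against 26.1% and 22.8% of all genes. Without the fold threshold 7 members were called in soma (8.64%, against 13.2% of all genes) and 7 in neurites (9.33%, against 8.83%). In soma 5 rose and 2 fell, against 6.13% and 7.07% of all genes, and in neurites all 7 rose, against 5.59%. At 1.5-fold, 3 were called in soma and 1 in neurites, against 11% and 7.49%. The medians over the factors were 0.07 in soma and 0.09 in neurites, and over all genes 0.01 in each. Fos, an immediate early gene, stood at 12.4 to 19.9 CPM in WT Ctrl libraries and at 1690 to 3202 in WT KCl libraries.

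The scanning factors Eif1 and Eif1a rose in both compartments. Eif1 went from 370.4 and 371 CPM to 520.2 and 533 in soma (log2 change 0.43, adjusted p 0.014) and from 379 and 366 to 487 and 488 in neurites (0.43, adjusted p 0.021). All KCl libraries lay above all Ctrl libraries. Eif1a, which opens the ribosomal scanning channel together with eIF1, went from 62.7 and 66.4 CPM to 109 and 89.4 in soma (0.54, adjusted p 0.012) and from 60.0 and 58.0 to 79.9 and 83.1 in neurites (0.50, adjusted p 0.022). Of their paralogs, Eif1b had 89.2 and 87.3 CPM in Ctrl soma and 103 and 88.6 in KCl soma, and Eif1ax had 159 and 174 against 203 and 182. The groups overlapped for Eif1b and not for Eif1ax, neither passed the test, and differences between paralogs were not tested.

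Eif5a rose from 611 and 604 CPM to 887 and 829 in soma (log2 change 0.42, adjusted p 0.018) and from 698 and 762 to 916 and 997 in neurites (0.43, adjusted p 0.024). Eif5a2, its paralog, had 19.3 and 21.9 CPM in Ctrl soma and 26.8 and 26.8 in KCl soma, and it did not pass in either compartment. Eif4g2, an eIF4G relative that lacks the eIF4E-binding region, rose in soma from 585 and 635 CPM to 819.6 and 862 (0.39, adjusted p 0.03). In neurites it had 728 and 710.1 CPM in Ctrl and 845 and 937 with KCl, which missed the threshold (adjusted p 0.065). Eif4g1 had 249 and 232 CPM in Ctrl soma and 153 and 264 with KCl, where the KCl libraries lay on both sides of the Ctrl libraries, and Eif4g3 had 97.7 and 90.6 against 86.6 and 79.8 and was not called.

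Eif4a1 rose in neurites from 453 and 428 CPM to 562 and 669.7 (log2 change 0.52, adjusted p 0.015). In soma it went from 499 and 522 to 662 and 654 without passing the test (0.29, adjusted p 0.11). The soma groups did not overlap, as was so for 33.8% of all genes in the upward direction there. Eif4a2, the paralog that prevails in adult brain, had 379 and 382 CPM in Ctrl neurites and 374 and 398 with KCl. Eif2s2, the beta subunit of eIF2, rose in neurites from 121 and 109 CPM to 157 and 158 (0.50, adjusted p 0.015). Eif4a3 rose there from 49.1 and 47.6 to 60.6 and 64.3 (0.41, adjusted p 0.045).

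Eif2s3y showed the highest ratio of KCl over Ctrl among the factors past the adjusted p. It rose in soma to 22.5 and 19.0 CPM (log2 change 0.66, adjusted p 0.011) and in neurites to 13.9 and 14.1 (0.87, adjusted p 0.0038). Ctrl and KCl cultures of a replicate came from the same litter. The factors that fell were Eif2b5 and Eif3b, in soma, by 0.99 ± 0.18 (adjusted p 0.0044) and by 0.87 ± 0.17 (adjusted p 0.0071) on the log2 scale. Both lay short of 2-fold, and both passed it without WT Ctrl soma replicate 2, where 2 factors were called. Without WT KCl soma replicate 2, 1 was called. In neurites Eif2b5 had 99.5 and 88.1 CPM in Ctrl and 76.1 and 79.9 with KCl, without passing the test.

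**Figure D3:**
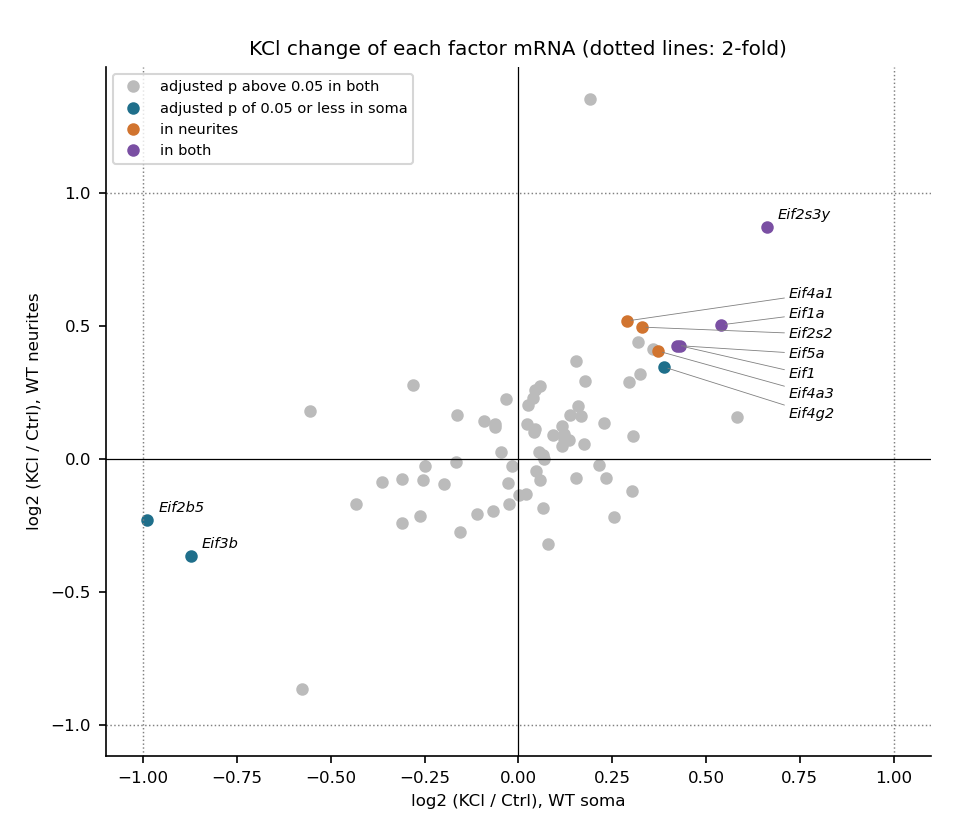
Log2 change with KCl of each factor mRNA in WT soma (x axis) and WT neurites (y axis), coloured by the compartment in which the adjusted p was 0.05 or less. All coloured points lie inside the 2-fold lines, Eif2b5 and Eif3b lie on the left and Eif2s3y lies at the upper right.

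The change of neurite enrichment with KCl, tested with 1 term per insert at 1.5-fold and an unadjusted p of 0.05, was called for 1 of 81 factors, against 3.36% of 23200 genes (779). In simulated counts with the spread of this comparison, the same rule gave 854 false calls among 22851 genes. Eif2b5 gained 0.78 ± 0.21 on the log2 scale (edgeR unadjusted p 0.0053, adjusted p 1), so it failed the correction over all genes. Without WT KCl replicate 1 the gain was 0.52, under the fold threshold. In soma both KCl libraries of Eif2b5 were lower than both Ctrl libraries, and its CPM in neurites is given above. Left out in turn, the inserts gave 2 or 3 calls: 2 without WT Ctrl replicate 1 or WT KCl replicate 1, and 3 without WT Ctrl replicate 2 or WT KCl replicate 2.

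Genes around these factors, in a list of 45 that act in the response to eIF2 phosphorylation, mTOR and eIF4E signalling, cap and tail partners, termination and mitochondrial translation, included some that rose with KCl. In soma 4 of 45 rose past 2-fold and 0 fell, against 6.7% of all genes called, and in neurites 6 rose and 0 fell, against 5.03%. Atf4, the transcription factor that is translated when eIF2 is phosphorylated, went from 36.3 and 32.8 CPM to 218 and 189 in soma (log2 change 2.48) and from 24.9 and 23.2 to 144 and 149 in neurites (2.64). Ppp1r15a, which directs a phosphatase to eIF2, went from 49.0 and 52.4 CPM to 581 and 416 in soma (3.22). Its constitutive relative Ppp1r15b rose by 2.4 and the eIF4E kinase Mknk2 by 1.75 on the log2 scale in soma. All 4 also rose in neurites, together with Rheb, the activator of mTOR complex 1 (1.08), and the helicase Ddx3x (1.03). Of the 8 genes listed for the response to eIF2 phosphorylation, 5 were called in neither compartment: Ddit3, Ddit4, Sesn2, Chac1 and Trib3. Phosphorylation of eIF2 was not measured. Between neurites and soma, 0 of the 45 were higher in either treatment, against 9.01% of all genes in Ctrl and 6.87% with KCl. In Ctrl 3 were lower, against 4.54% of all genes (Chac1, Atf4 and the S6 kinase Rps6kb2, by 0.62 to 0.96), and with KCl 3 were lower, against 2.73% (Ppp1r15b, Chac1 and Cpeb1, by 0.67 to 0.73).

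Between Mettl3 KO and WT, edgeR with all libraries called no factor. In Ctrl soma 0 of 81 and in Ctrl neurites 0 of 73 passed 1.5-fold and the adjusted p in edgeR, against 0.185% and 0.188% of all genes. At an unadjusted p under 0.05 there were 11 and 5 members, against 8.97% and 7.47% of all genes. DESeq2 called 3 and 0, and without Mettl3 KO soma replicate 1 edgeR called 14 in soma. The Mettl3 KO replicates differed far more than the WT replicates: the log2 ratio of 2 replicates had an SD over genes of 0.502 to 1.33 in the Mettl3 KO groups and 0.167 to 0.364 in the WT groups. In simulated counts with the spread of the soma comparison, 39% of genes changed 4-fold were recovered, against 99.5% for neurites over soma in WT Ctrl. The changed genes had a mean count of at least 100, so recovery at lower counts was not measured. Neurites and smaller folds were not simulated for the genotypes.

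The median log2 difference of Mettl3 KO over WT was 0.17 in soma and 0.21 in neurites over the factors, and 0.02 and 0.01 over all genes. In neurites both Mettl3 KO libraries exceeded both WT libraries for 40 of 73 factors, against 23.5% of all genes, and lay below for 9, against 25.8%. In soma the counts were 28 and 8 of 81, against 25% and 23.5%. All 14 eIF3 mRNAs had a positive difference in neurites, with a median of 0.33, and 0 of them were called. In soma 11 of the 14 were positive, with differences from −0.46 to 1.48. The share of all genes with a positive difference was not computed. Astrocyte markers were also higher in the Mettl3 KO cultures, as given above. The neuronal list summed to 2615 and 3159 CPM in Mettl3 KO Ctrl neurites against 4278 and 4785 in WT, without overlap. In Ctrl soma it summed to 2847 and 3600.0 CPM in Mettl3 KO against 3278 and 3418 in WT, where the ranges overlapped. Within the list, Map2 had 517 and 636 CPM in Mettl3 KO Ctrl neurites against 1381 and 1847 in WT. Rbfox3, Snap25, Syt1, Gad1 and Gad2 were also lower in both Mettl3 KO neurite libraries, and Slc17a7 overlapped. Tubb3 was higher there, with 892 and 861 CPM against 779 and 689. The paper reports reduced neurite enrichment of Map2 in Mettl3 KO neurons. The neurite sum is therefore no plain measure of neuronal content. The part of either list in these shifts was not tested.

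The smallest p in soma belonged to Eif4ebp2, which had 33.1 and 31.7 CPM in WT and 52.1 and 70.3 in Mettl3 KO, a log2 difference of 0.92 ± 0.23 (adjusted p 0.19). Eef1g followed the same course, with 219 and 205 CPM in WT and 376 and 352 in Mettl3 KO soma (0.78, adjusted p 0.31), and 324 and 355 against 582 and 435 in neurites (0.59, adjusted p 0.56). In both genes the genotypes did not overlap in soma. Eif3b had 89.8 and 62.2 CPM in WT soma against 136 and 288 in Mettl3 KO, and in neurites 112 and 106 against 291 and 133 (adjusted p 0.28 and 0.63). Eif5a2 had the third smallest p in neurites, with 21.2 and 33.5 CPM in WT and 18.1 and 15.7 in Mettl3 KO. Its difference of −0.69 did not pass (adjusted p 0.65).

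Mettl3 KO Ctrl soma replicate 2 stood apart for several factors. Eif3k, a small eIF3 subunit, had 110.0 and 20.5 CPM in the Mettl3 KO soma libraries, against 90.7 and 88.2 in WT. Eef1b2, an exchange factor subunit, had 128 and 33.2, and Eef1akmt1, a lysine methyltransferase of eEF1A, had 50.3 and 11.4. In the opposite direction, Eef1a2 had 32.0 and 189 CPM there, against 21.4 and 15.9 in WT. A single library thus set the difference of these mRNAs in soma.

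**Figure D4:**
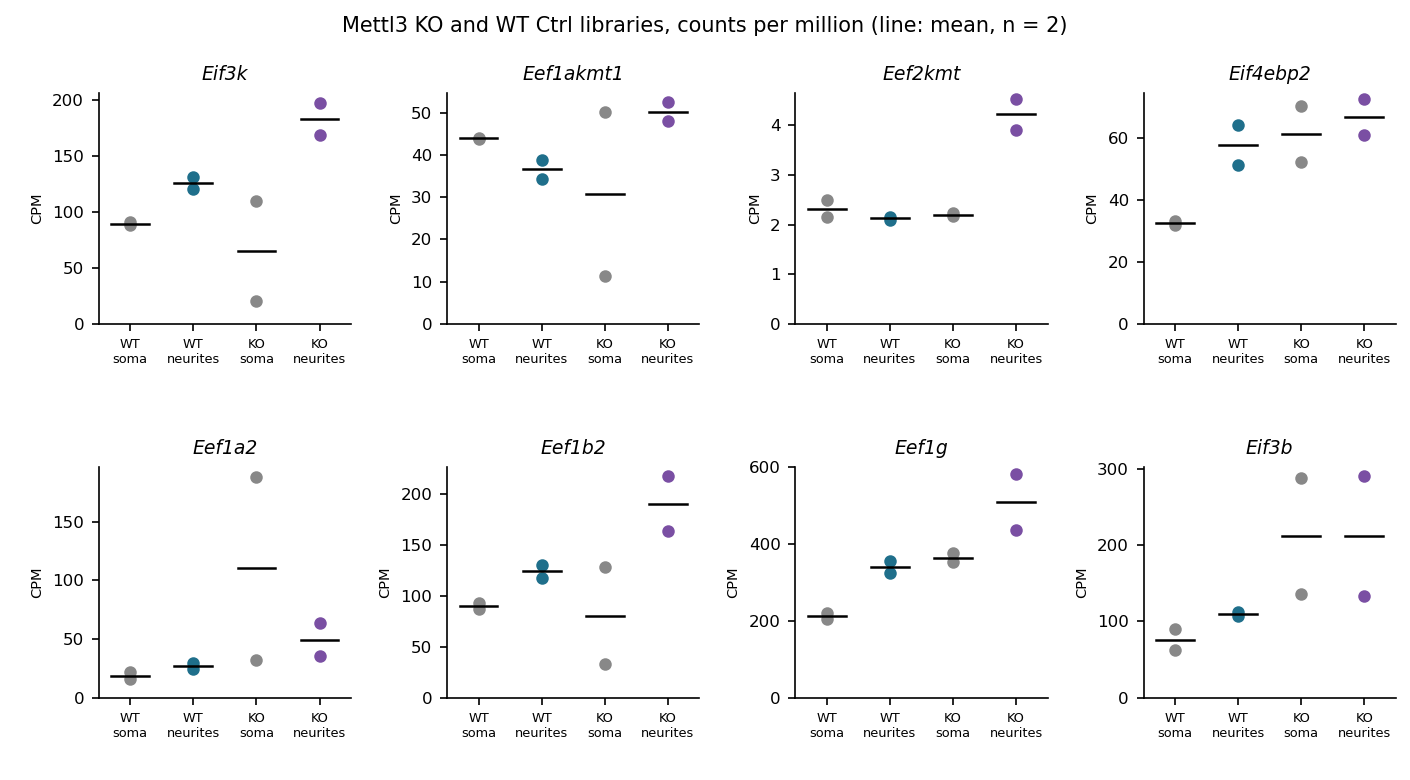
CPM (y axis, from 0) of 8 factor mRNAs in WT and Mettl3 KO Ctrl libraries, with 1 dot per library and a line at the mean of the 2. The Mettl3 KO soma dots of Eif3k, Eef1akmt1, Eef1a2 and Eef1b2 lie far apart, those of Eef1g close together.

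The change of neurite enrichment in Mettl3 KO was called for 4 of 75 factors at an unadjusted p of 0.05 and 1.5-fold, against 4.19% of 22942 genes, and none passed the correction (edgeR adjusted p 0.93). Eif3k gained 1.45 ± 0.61 (unadjusted p 0.043), with 197 and 169 CPM in Mettl3 KO neurites against 120.4 and 131 in WT. Eef1akmt1 gained 1.33 ± 0.56 (unadjusted p 0.043). For both, the gain came with the low soma library named above, and without Mettl3 KO Ctrl replicate 2 the gains were 0.42 and 0.40. Eef2kmt, which methylates eEF2, gained 1.06 ± 0.44 (unadjusted p 0.04), with 3.91 and 4.53 CPM in Mettl3 KO neurites against 2.17 and 2.23 in Mettl3 KO soma. Eif4ebp2 lost 0.69 ± 0.27 (a log2 difference of −0.69, unadjusted p 0.033), with 60.8 and 72.4 CPM in Mettl3 KO neurites, close to its Mettl3 KO soma level. With Mettl3 KO Ctrl replicate 1 left out, 23 factors were called, and 0 with either WT replicate left out, 1 without Mettl3 KO Ctrl replicate 2 and 1 without the insert terms. Within Mettl3 KO Ctrl cultures, 0 of 74 factors and 0 of 22557 genes (0%) were called between neurites and soma by edgeR (2 members and 5.49% of genes at an unadjusted p under 0.05), and DESeq2 called 0 factors. Without Mettl3 KO soma replicate 1, 1 was called. The smallest p belonged to Pabpc4, with 35.6 and 30.2 CPM in soma and 67.8 and 61.2 in neurites (0.93, adjusted p 0.84), to Eif3f, with 98.8 and 136 against 322 and 211 (1.13, adjusted p 0.84), and to Eif3h (0.79, adjusted p 0.84).

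DART-seq sites were listed in 53 of the 82 factor mRNAs (64.6%), against 34.8% of 15800 protein-coding genes. Sites are more often called in abundant mRNAs, and the median WT level was 53.7 CPM for the factors and 14.7 for all protein-coding genes. Between 10 and 50 CPM, 15 of 22 factors had a site (68.2%, against 39.1% of genes). Between 50 and 200 CPM it was 26 of 29 (89.7%, against 80.4%), and from 200 CPM on 11 of 13 (84.6%, against 84%). Below 10 CPM 1 of 18 had a site (5.56%, against 5.22%). The 29 factors without a listed site include Eef1a1, the most abundant, and Eif4ebp1. The authors' values are averages over libraries without replicates or depth, so the DART-seq values are given as a description.

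The factors carried 167 sites, with a median of 3 and at most 9 per mRNA. All 167 edited cytosines follow an adenosine in the reference sequence, which the RAC filter of the site calling requires, in a GAC at 85 sites and an AAC at 82. Coding sequence held 117 (70.1%, against 60.0% of all 18231 sites), 3′UTRs 33 (19.8%, against 32.0%) and 5′UTRs 11 (6.59%, against 3.94%). The most edited site of several mRNAs is shown in a window of 21 bases centred on the edited C, GRCm38 (mm10), 5′ to 3′ along the mRNA, with the motif in capitals and the edited C as its last letter.
Eif4enif1 (chr11:3229999-3230019, + strand, coding): tagcaataGACagctcaagaa
Eif4g2 (chr7:111071710-111071730, − strand, 3′UTR): aaactgtcAACttaatctgac
Eif2a (chr3:58548692-58548712, + strand, coding): catatcttAACagccacatgt
Eif5b (chr1:38017916-38017936, + strand, coding): agaaacaaGACtttgagtatg
Eif4g1 (chr16:20673897-20673917, + strand, coding): atgaaatgAACaaagctcccc
Eif4ebp2 (chr10:61432028-61432048, − strand, 3′UTR): catggaaaGACcctcttttgt
Pabpc4 (chr4:123286701-123286721, + strand, coding): tgaacttcGACgtgatgaagg
Pabpc1 (chr15:36608429-36608449, − strand, coding): cccgacgtGACcgaggcgatg
Eef2 (chr10:81177812-81177832, + strand, coding): gctggggaGACgcgcttcact

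Editing ran from 30.4% of reads at the Eif4enif1 site and 20.6% at the Eif4g2 site to 1.36% at the Eef2 site and 0.671% at the Pabpc1 site. Between them lay 16.5% in Eif2a, 14.4% in Eif5b, 10.3% in Eif4g1, 9.41% in Eif4ebp2 and 7.07% in Pabpc4. Among the 4 mRNAs shown that were called higher in WT Ctrl neurites, Eif4ebp2 and Pabpc4 were edited more than Eef2 and Pabpc1. The others were shown for highly edited sites or high scores, so the order among the 9 is no finding. The median over all 167 sites was 3.22%.

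The score sums the edited fractions over the sites of an RNA. The highest WT scores belonged to Eif4enif1, which carries eIF4E into the nucleus and represses it (0.478), Eif4g1, the scaffold of eIF4F (0.431), and Eif4ebp2 (0.412). Eif5b, which joins the ribosomal subunits, followed at 0.355 and Eif2a, an alternative carrier of initiator tRNA, at 0.287. In Mettl3 KO these 5 scores were 0.174, 0.191, 0.105, 0.156 and 0.106. The authors kept only sites edited at least 1.5-fold more in WT than in Mettl3 KO, so lower Mettl3 KO scores follow from the site calling and are no finding. The median score of the factors was 0.0965 in WT and 0.0334 in Mettl3 KO, against 0.103 and 0.0285 over all RNAs with sites. All 53 scores include Ctrl and KCl libraries.

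Neurite scores exceeded soma scores for 42 of the 53 mRNAs (79.2%), against 68.8% of all RNAs, with a median ratio of 1.37 against 1.30. At 1.5 times or more the counts were 21 in favour of neurites (39.6%, against 39.3%) and 6 in favour of soma (11.3%, against 15.6%). All 14 eIF3 mRNAs scored higher in neurites. Eif4g1 scored 0.355 in soma and 0.525 in neurites, Eif4ebp2 0.330 and 0.511, and Eif5b 0.273 and 0.457. The highest ratios of neurites over soma were those of Eif2ak2 (0.0116 in soma and 0.0863 in neurites) and Eif2d, which binds tRNA without GTP (0.0726 and 0.358). Next came Eif2b5 (0.0453 and 0.158) and Eef2k (0.0990 and 0.323). In the other direction, Eif1b scored 0.0370 in soma and 0 in neurites, Pabpc1 0.0216 in soma and 0.00323 in neurites, Eif2a 0.369 and 0.224, and Eif4enif1 0.492 and 0.456. The scores of Eif2ak2 and Eif1b each rest on 1 site, and the Eif2ak2 site lies outside the annotated coding transcripts. Those of Pabpc1 rest on 2 sites with little editing, a mean fraction of 0.0061 per site in WT. Among the mRNAs higher in WT Ctrl neurites, Pabpc4, Eif4ebp2, Eif2ak2, Eef2 and Eif3f scored higher in neurites and Pabpc1 in soma.

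**Figure D5:**
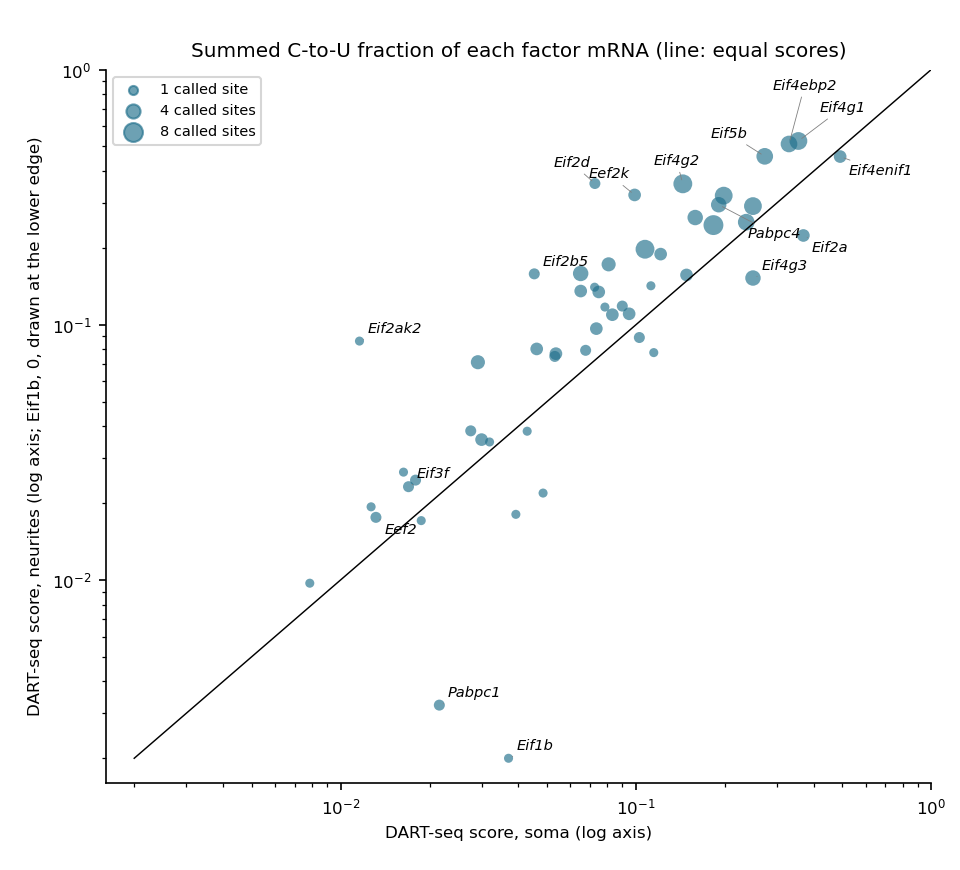
DART-seq score in soma (x axis, log) and neurites (y axis, log) of the 53 factor mRNAs with called sites, with dot area growing with the number of sites and a line at equal scores. Eif1b, with a neurite score of 0, is drawn at the lower edge. Most dots lie above the line, and Pabpc1, Eif1b and Eif2a lie below it.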

How the data were processed

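The authors aligned paired reads to mm10 with STAR 2.7.7a and counted fragments over the exons of Ensembl 97 genes with featureCounts 2.0.1, keeping multi-mapping reads and no strand. The deposited RNA-seq values are whole-number counts without normalization. Per the file headers, the deposited neurite enrichment tables hold a signal (mean scaled count), log2 fold changes, score columns and p-values of the authors' DESeq2 comparisons, of which gene names and biotypes were used and no values. In the deposited DART-seq table the score is the sum over called sites of C-to-U fractions, averaged by the authors over libraries, beside their log2 changes and p-values, which were not used. The deposited site list gives a C-to-U fraction per site.

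Counts were fitted in edgeR 4.0.16 (R 4.3.3) by the quasi-likelihood F-test, two-sided, with TMM scaling and Benjamini-Hochberg adjustment over all genes tested. Only genes with a mean count of 10 or more were fitted. WT comparisons used the 8 WT libraries, genotype comparisons all 16, and neurites over soma in Mettl3 KO the 8 Mettl3 KO libraries. Thresholds were the study's: 1.5-fold and an adjusted p of 0.05, 2-fold for KCl, and 1.5-fold with an unadjusted p of 0.05 for changes in neurite enrichment, where inserts were terms. FPKM divide scaled counts by exon length. The ratio of replicates used log2(CPM + 0.5). The model was tested on simulated counts with 200 genes, each of a mean count of at least 100, changed 4-fold.

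Same-numbered soma and neurite libraries come from 1 insert according to the study's methods. Their deviations from the group means correlated at −0.141 in WT Ctrl, 0.0153 in WT KCl, 0.0716 in Mettl3 KO Ctrl and 0.901 in Mettl3 KO KCl (15170 genes). The labels name duplicates from different litters, so p-values measure the spread between 2 cultures a group. Intervals of counting were not computed, and they are wider for low counts, such as the 234 and 181 of Eif4ebp1 in WT Ctrl soma. PCR copies were not marked by molecular identifiers.

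Members, role groups and gene lists were chosen with earlier results of these data known. Members were named by paralog sets, by passing a threshold, by the 5 highest levels or DART-seq scores, and, where none passed, by the 3 smallest p. Eef1b2 and Eef1a2 in Mettl3 KO soma, Eif3h, Eif4h and the DART-seq mRNAs with the most extreme ratios were named after their values were seen. Start windows are from RefSeq GRCm38.p6 and site windows from GRCm38, read with Python 3.11.15 and pysam 0.24.0. Alternatives covered the tool (DESeq2 1.42.0), RLE scaling, the filter (none, or a mean of 100), the libraries fitted, blocks, thresholds and each replicate left out. Library totals as scaling, crossed numbers and the run of 7 pyrimidines were chosen after seeing the data. All 37 mitochondrially encoded genes are at 0 in the table.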

Additional observations from a re-analysis of the deposited data

Results flagged for a closer look

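Changes in neurite enrichment that passed 1.5-fold and an unadjusted p of 0.05, a test of the difference between 2 conditions, are listed here, and none passed the adjustment over all genes. With KCl in WT, Eif2b5 gained 0.78 ± 0.21 on the log2 scale (edgeR unadjusted p 0.0053, adjusted p 1). Between Mettl3 KO and WT in Ctrl cultures, Eif3k gained 1.45 ± 0.61, Eef1akmt1 1.33 ± 0.56 and Eef2kmt 1.06 ± 0.44, while Eif4ebp2 changed by −0.69 ± 0.27 (edgeR adjusted p 0.93 for each). Over the alternatives tried, Eif3k ranged from 0.42 to 2.56, Eef1akmt1 from 0.40 to 2.34, Eef2kmt from 0.98 to 1.15, Eif4ebp2 from −0.88 to −0.49 and Eif2b5 from 0.52 to 1.05. Eif3k and Eef1akmt1 had their lowest values without Mettl3 KO Ctrl replicate 2.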

How the results depend on the processing

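With 2 libraries a group, the counts of called factors depend on the libraries that set the spread. For neurites over soma, all 16 libraries gave 0 called factors in WT Ctrl and 0 in WT KCl, and library totals gave 17 in WT Ctrl; the other scalings, tools and filters gave counts within 1.5 times. For KCl over Ctrl, 1.5-fold gave 3 in soma and 1 in neurites. For the KCl change in neurite enrichment, no filter gave 2, and all 16 libraries and the adjusted p gave 0. For Mettl3 KO over WT in soma, DESeq2 gave 3, no filter 2 and the fit without both libraries of Mettl3 KO KCl replicate 1 gave 1. For the Mettl3 KO change in neurite enrichment, no filter gave 7, the libraries of the comparison alone 0, the fit without both libraries of Mettl3 KO KCl replicate 1 gave 2, no replicate block 1 and the adjusted p 0. The causes were not tested.

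Leaving out each replicate in turn gave 6 to 14 called factors for WT Ctrl neurites over soma, 5 to 12 for WT KCl, 0 to 2 for KCl in soma, 0 for KCl in neurites, 2 to 3 for the KCl change in neurite enrichment, 0 to 14 for Mettl3 KO in soma, 0 for Mettl3 KO in neurites, 0 to 23 for the Mettl3 KO change in neurite enrichment and 0 to 1 for Mettl3 KO neurites over soma. A lone sample is then assumed to vary like the other groups. The insert as a replicate block gave 9 called factors in WT Ctrl and 7 in WT KCl, and crossed WT Ctrl numbers gave 10. The replicate number as a replicate block, which marks a shared litter for KCl over Ctrl but only a number for Mettl3 KO over WT, gave 0 for each, as without it.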
